A study of Mus musculus with 9 samples.

Results

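The 9 genes Asns, Got1, Cth, Cbs, Gpt2, Glul, Aldh18a1, Pycr1 and Pck2 encode enzymes that make asparagine, aspartate, cysteine, alanine, glutamine and proline, or that feed carbon from these pathways into phosphoenolpyruvate. They were taken by gene name from a table of 54532 mouse gene IDs, and each name matched 1 ID. RNA-seq was performed on HT22, a single immortalized mouse hippocampal cell line of wild-type genotype, in 3 groups with 3 libraries each. Control cells were untreated. OGP cells, which the study's text calls OGD, were deprived of oxygen and glucose for 2 h and reoxygenated for 24 h with PBS. OGE cells passed through the same deprivation and received, instead of PBS, extracellular vesicles (hiPS-MSC-EVs) of mesenchymal stem cells made from human induced pluripotent stem cells. The description of the sequencing names no vesicle dose, though the paper gives one for the HT22 model in general. The labels name the standard medium after deprivation. The study's methods list medium with exosome-free serum, without serum or with vesicles, so the serum of OGP and OGE may have differed. Those methods also leave serum out during deprivation. OGP and OGE may thus differ from control in serum and in changes of medium too. The labels and methods also differ on the RNA kit (RNeasy or TRIZOL), and the study calls the replicates biological without saying whether they were separate cultures, so a p-value here reflects the spread of these libraries alone.

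Most of these enzymes draw on glutamate. Transaminases pass its amino group to pyruvate or oxaloacetate, asparagine synthetase takes nitrogen from glutamine, and proline is built from the carbon chain of glutamate itself. In cells short of amino acids or with misfolded proteins, phosphorylation of the initiation factor eIF2α favours translation of the transcription factor ATF4, which is known to bind C/EBP-ATF response elements (CARE) at many amino acid genes, a programme called the integrated stress response. In brain, glutamine synthetase is best known from astrocytes, which take up glutamate and return it to neurons as glutamine.

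The libraries held 15026700 to 19476806 reads in genes, recovered from the FPKM (fragments per kilobase of gene, scaled to library depth), so the values of the 8 expressed enzyme genes rest on 224 reads (Cth, lowest library) to 5013 reads (Asns, highest library). Replicates differed more than counting alone allows, with a chi-square per degree of freedom of 4.03 to 16.6 within OGP, OGE and the other control pair, but of 34.7 and 48.2 between control replicate 1 and the other controls. Mitochondrial transcripts took 1.10% to 2.31% of reads in control, 2.45% to 3.25% in OGP and 2.03% to 2.90% in OGE. Of 9 neuron markers, 3 reached a mean of 0.5 FPKM, with Tubb3 the highest and Dcx at 0 in all libraries, so most markers of mature neurons were near absent from this line. The 9 summed to 13.4 to 15.9 FPKM in control, 15.2 to 16.2 in OGP and 17.8 to 22.1 in OGE. Of 6 astrocyte markers only Slc1a3 reached that level and Aqp4 stood at 0, and of 5 oligodendrocyte and 5 microglia markers 1 (Cnp) and 0 did.

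In control cells the enzyme genes ranked from Asns at 66.6 ± 1.26 FPKM (SD, n = 3) through Aldh18a1 at 35.2 ± 3.01, Got1 at 32.8 ± 2.71, Glul at 26.0 ± 3.15, Pck2 at 17.5 ± 2.43, Gpt2 at 11.8 ± 0.435, Pycr1 at 10.1 ± 0.998 and Cth at 5.03 ± 0.326 down to Cbs, with 0 to 4 reads in a library. FPKM is scaled by the gene length in the deposited table, which was 7806 bases for Pck2 and 2735 for Asns. The order of levels holds for these lengths only, since the length of the transcripts present was not measured. Aldh18a1 and Got1 were the only neighbours in this order whose libraries overlapped. In OGP the libraries of Got1 and Pck2 overlapped, and Glul, which ranked above Pck2 in control, came below Cth and Pycr1. In OGE, Glul overlapped Gpt2 and Gpt2 overlapped Cth.

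**Figure D1:**
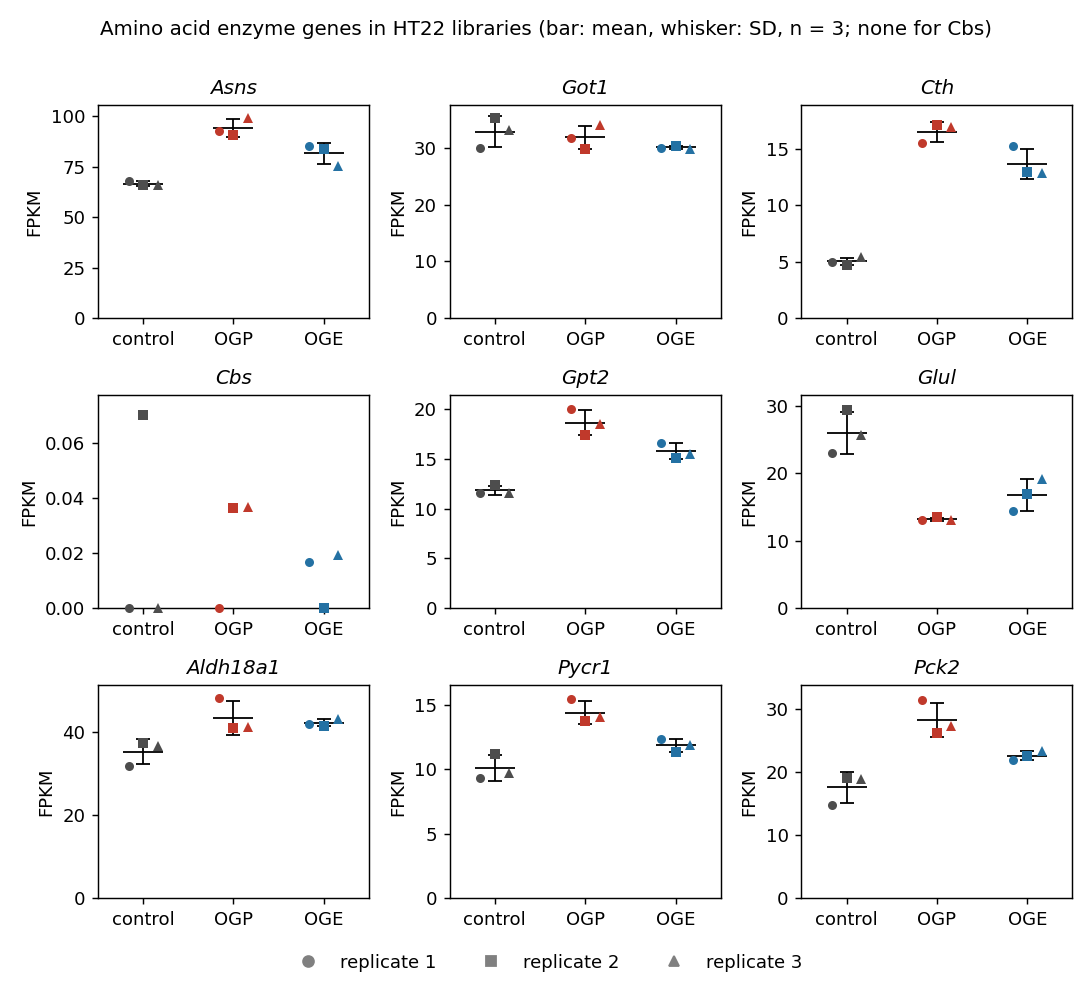
FPKM of each enzyme gene (vertical axis, from 0) in the 3 control, 3 OGP and 3 OGE libraries (horizontal axis), with symbols for the replicate number, bars for the mean and whiskers for the SD. The OGP libraries lie above all control libraries for Asns, Cth, Gpt2, Aldh18a1, Pycr1 and Pck2 and below them for Glul, Got1 overlaps, and Cbs stays below 0.1 FPKM with no mean drawn.

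RefSeq promoters (GRCm38.p6, 250 bases before to 50 after the start) were found for 8 of the 9 genes. They were searched on both strands for the CARE motif TGATGNAA, which ATF4 and C/EBP factors are known to bind, and for the antioxidant response element TGACNNNGC. The CARE letters occurred in 4 of the 8, in Asns, Pycr1, Pck2 and Got1, and in 3.97% of 32851 promoters of the same length. The antioxidant element occurred in 1 of the 8 (Asns, 172 bases before the start) and in 12.39% of all promoters. The 250 bases before the start of the 4 genes with a CARE match are shown. Of these genes 3 were higher in OGP than in control and the other, Got1, was not. Among tested genes without a match, Gpt2 and Aldh18a1 were higher too and Glul was lower. The stretches read 5′ to 3′ on the strand of the gene, with the match in capitals. It starts 23 bases before the start site in Asns (chr6:7693210-7693459, minus strand) and 103 bases before it in Pycr1 (chr11:120643749-120643998, minus strand). In Pck2 (chr14:55540016-55540265, plus strand) it starts 103 bases and in Got1 (chr19:43524606-43524855, minus strand) 102 bases before the start, and in these it lies on the opposite strand, so the capitals show the reverse complement. The gene models of the deposited table begin within the stretches shown for Asns and Pycr1. In Asns that model begins at 7693254, so the match, at 7693225 to 7693232, lies inside it. The Pycr1 model begins at 120643769, and the match, at 120643844 to 120643851, lies before it.
Asns: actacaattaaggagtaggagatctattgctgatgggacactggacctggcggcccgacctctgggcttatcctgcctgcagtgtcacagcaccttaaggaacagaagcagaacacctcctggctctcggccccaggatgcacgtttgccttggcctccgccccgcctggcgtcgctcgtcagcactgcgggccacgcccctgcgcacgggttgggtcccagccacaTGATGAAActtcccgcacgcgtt
Pycr1: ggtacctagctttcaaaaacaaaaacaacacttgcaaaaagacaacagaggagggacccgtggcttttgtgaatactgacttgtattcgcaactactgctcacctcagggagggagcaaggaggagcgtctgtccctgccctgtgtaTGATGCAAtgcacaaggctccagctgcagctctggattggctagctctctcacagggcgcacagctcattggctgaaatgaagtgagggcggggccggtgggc
Pck2: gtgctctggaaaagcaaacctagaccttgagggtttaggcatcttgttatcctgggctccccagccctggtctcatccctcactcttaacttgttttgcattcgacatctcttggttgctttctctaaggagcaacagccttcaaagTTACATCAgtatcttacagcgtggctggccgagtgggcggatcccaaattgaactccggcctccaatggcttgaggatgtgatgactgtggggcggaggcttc
Got1: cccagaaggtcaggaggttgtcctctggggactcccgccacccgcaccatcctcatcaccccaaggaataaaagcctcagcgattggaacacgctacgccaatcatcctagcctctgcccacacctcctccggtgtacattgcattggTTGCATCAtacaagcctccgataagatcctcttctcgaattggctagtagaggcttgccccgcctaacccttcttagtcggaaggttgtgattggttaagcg
A match of letters is not a bound site, and binding was not measured.

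OGP was compared with control to ask how these genes differed after deprivation and reoxygenation, from which serum and changes of medium cannot be told apart. Of the 8 enzyme genes tested, 6 rose (Asns, Cth, Gpt2, Aldh18a1, Pycr1 and Pck2) and 1 fell (Glul) at an adjusted p of at most 0.05, where 13.8% of all 13245 genes tested rose and 16.0% fell. Cth rose the most, to 3.07-fold, and Glul fell to 0.519-fold. With a fold of at least 1.5 as well, which defines a DEG here and in the study, 3 were higher (Cth, Gpt2 and Pck2) and 1 lower (Glul), against 6.38% and 5.74% of all genes. In 7 of the 8 no OGP library overlapped the control libraries, as in 42.9% of all genes. The median log2 fold change of the 8 was 0.49, and that of all genes tested was 0.00633. The enzyme genes were chosen with earlier results of these data known. Setting them beside all genes, here and below, is therefore a description and no test of such genes. The tests were limma fits on log2(FPKM + 0.5) with all genes, so fold changes are on that scale, and in bulk RNA fewer cells of a kind cannot be told apart from less RNA per cell.

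OGE was compared with OGP to ask how these genes differed with vesicles in place of PBS, though the serum may have differed too. None of the 8 passed at an adjusted p of 0.05 (limma) and none was a DEG, nor was any a DEG with voom on the recovered reads, though Glul passed there (adjusted p = 0.0490, limma). When only the 6 OGP and OGE libraries were fitted, Glul, Pck2 and Pycr1 passed at adjusted p of 0.0478, 0.0266 and 0.0290 (limma). Of all genes tested 10.6% rose and 10.2% fell at this threshold, and 3.39% and 4.73% were DEGs. At an unadjusted p under 0.05, 5 were lower (Asns, Cth, Gpt2, Pycr1 and Pck2) and 1 higher (Glul) in OGE, where 16.8% and 17.9% of all genes were, and in the same 6 the libraries of the groups did not overlap, as in 45.4% of all genes. The adjusted p of these 6 lay between 0.0570 and 0.0826 (limma). Without OGE replicate 3, 3 were lower and 0 higher at an unadjusted p under 0.05. The median log2 fold change was -0.22, against 0.00386 for all genes, and after quantile normalization it was -0.13 against 0.0232. That scaling left 4 of the genes lower and 1 higher at an unadjusted p under 0.05, and Pycr1, lower, then passed (adjusted p = 0.0487, limma). Without control replicate 1, which enters the shared estimate of the spread, Asns, Gpt2, Pycr1 and Pck2 were lower and Glul higher at adjusted p of 0.0155 to 0.0497 (limma). The 5 oligodendrocyte markers, mostly Cnp, summed to 6.41 to 9.11 FPKM in control, 8.25 to 9.39 in OGP and 5.41 to 5.84 in OGE, and their part in these differences was not tested.

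OGE against control shares its samples with both comparisons above, so the 3 sets of values are not independent. In it, 4 of the 8 rose (Asns, Cth, Gpt2 and Pck2) and Glul fell, where 11.7% of all genes rose and 13.1% fell. Cth, higher, and Glul, lower, were DEGs, against 5.14% and 6.33% of all genes. In 7 of the 8 the libraries did not overlap, against 38.2% of all genes. The median log2 fold change was 0.27, and that of all genes -0.00342.

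**Figure D2:**
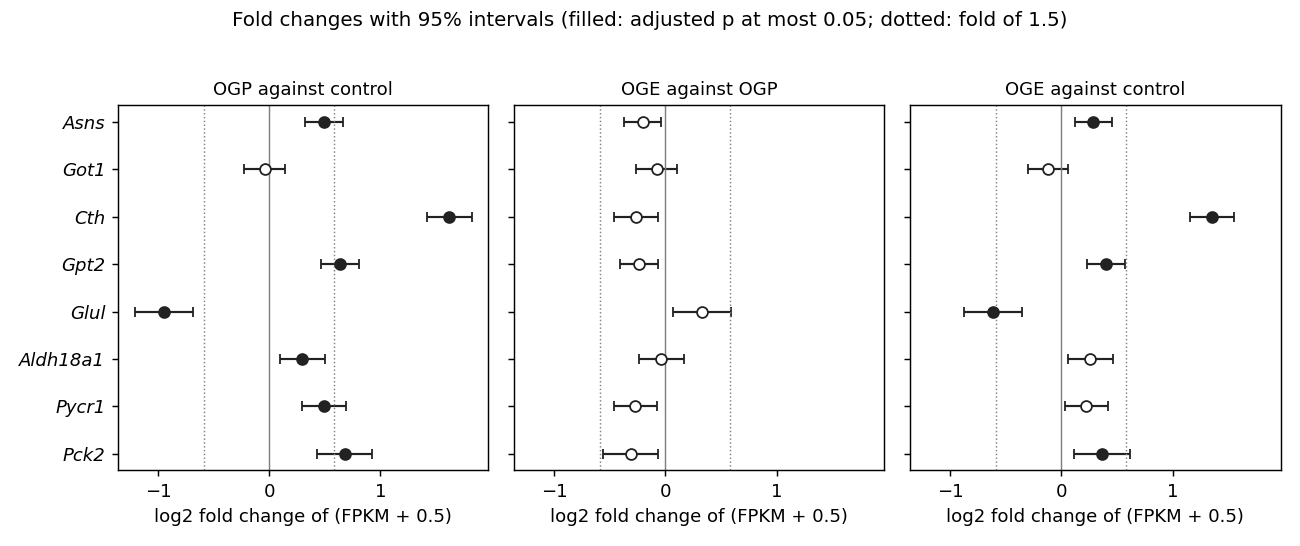
The log2 fold change of FPKM + 0.5 (horizontal axis) of the 8 tested enzyme genes (vertical axis) in 3 comparisons, with 95% intervals. Filled points passed an adjusted p of 0.05 and dotted lines mark a fold of 1.5. Cth lies at 1.62 and Glul at -0.95 in OGP against control, and no point is filled in OGE against OGP.

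Asns (ENSMUSG00000029752, chromosome 6 from 7675169 to 7693254, mm10, minus strand) encodes asparagine synthetase, which makes asparagine from aspartate and glutamine. Its level was 68.1, 65.7 and 66.2 FPKM in the control libraries, 92.6, 90.5 and 99.0 in OGP and 85.1, 84.0 and 75.5 in OGE. All OGP libraries stood above all OGE libraries, and these above all controls. Asns rose 1.41-fold in OGP against control (log2 fold change 0.49, SE 0.075, adjusted p = 0.00151, limma), under the fold of a DEG. In OGE it was 0.29 above control on the log2 scale (adjusted p = 0.0213, limma), which did not pass without control replicate 2 or 3 or OGE replicate 1 or 2 (adjusted p of 0.0566 to 0.0968, limma). OGE minus OGP was -0.21 (95% interval -0.37 to -0.04, adjusted p = 0.0826, limma), and after quantile normalization it was -0.03 (adjusted p = 0.827, limma).

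Got1 (ENSMUSG00000025190, chromosome 19 from 43499752 to 43524605, minus strand) encodes the cytosolic aspartate transaminase, which exchanges the amino group between glutamate and aspartate and takes part in the malate-aspartate shuttle. It stood at 30.0, 35.4 and 33.2 FPKM in control, 31.8, 29.8 and 34.0 in OGP and 30.0, 30.3 and 29.9 in OGE. The groups overlapped in all comparisons. The log2 difference was -0.04 in OGP against control (95% interval -0.23 to 0.14, adjusted p = 0.732, limma), -0.08 in OGE against OGP (-0.26 to 0.10) and -0.12 in OGE against control (-0.31 to 0.06). Its mitochondrial counterpart Got2 fell by 0.60 on the log2 scale in OGP, from 57.0 to 37.3 FPKM (adjusted p = 3.11e-04, limma), and rose by 0.31 from OGP to OGE, to 46.5 FPKM (adjusted p = 0.0118, limma). The latter did not pass without OGP replicate 2 or 3 (adjusted p of 0.0549 and 0.0553, limma).

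Cth (ENSMUSG00000028179, chromosome 3 from 157894248 to 157925077, minus strand) encodes cystathionine gamma-lyase, which releases cysteine from cystathionine as the last step of transsulfuration and can form hydrogen sulfide. Its level was 4.99, 4.73 and 5.38 FPKM in control, 15.5, 17.1 and 16.9 in OGP and 15.2, 12.9 and 12.9 in OGE. Both deprived groups stood far above control, and every OGE library was below every OGP library. The log2 fold change was 1.62 in OGP (SE 0.089, adjusted p = 8.08e-06, limma) and 1.35 in OGE (adjusted p = 1.13e-05, limma) against control, and 1.42 was the lower bound of the 95% interval in OGP. Between OGE and OGP the difference was -0.26 (adjusted p = 0.0659, limma), and it passed without OGE replicate 1 (-0.34, adjusted p = 0.0483, limma). Against control, Cth remained a DEG of both deprived groups in each of 20 other settings with a fold of 1.5, and also at a fold of 2.

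Cbs (ENSMUSG00000024039, chromosome 17 from 31612623 to 31637199, minus strand) encodes cystathionine beta-synthase, which makes the cystathionine that Cth uses. The control libraries held 0, 4 and 0 reads of it, the OGP libraries 0, 2 and 2 and the OGE libraries 1, 0 and 1. These correspond to at most 0.0705 FPKM, and 3 reads in a library would be 0.0461 to 0.0597 FPKM. Cbs was below the limit of the test, and no difference between groups was detectable at this depth. Transcripts of the 2 transsulfuration enzymes were thus unequal in these cells in every library, with Cth at 4.73 FPKM or more.

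Gpt2 (ENSMUSG00000031700, chromosome 8 from 85492576 to 85527560, plus strand) encodes the mitochondrial alanine transaminase, which makes alanine and 2-oxoglutarate from pyruvate and glutamate. It stood at 11.6, 12.3 and 11.5 FPKM in control, 19.98, 17.4 and 18.5 in OGP and 16.6, 15.1 and 15.5 in OGE. The groups did not overlap, with OGP highest and control lowest. Gpt2 rose 1.55-fold in OGP against control (log2 fold change 0.63, SE 0.076, adjusted p = 4.73e-04, limma) and by 0.40 on the log2 scale in OGE against control (adjusted p = 0.00518, limma). Without OGP replicate 1 its fold against control was under 1.5 (log2 fold change 0.58), so it was then no DEG. On the log2 scale OGE differed from OGP by -0.24 (95% interval -0.41 to -0.06, adjusted p = 0.0576, limma).

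Glul (ENSMUSG00000026473, chromosome 1 from 153899944 to 153909723, plus strand) encodes glutamine synthetase, which joins ammonia to glutamate. Its level was 23.0, 29.3 and 25.6 FPKM in control, 13.0, 13.5 and 13.0 in OGP and 14.4, 16.9 and 19.1 in OGE. The OGP libraries lay close together below all others, and the OGE libraries were spread between OGP and control. Glul fell by 0.95 on the log2 scale in OGP (SE 0.116, adjusted p = 5.17e-04, limma) and by 0.62 in OGE (adjusted p = 0.00474, limma) against control. In OGE it was no DEG without control replicate 2 (-0.53), without OGE replicate 1 (-0.51) or after quantile normalization (-0.56). OGE was higher than OGP by 0.33 on the log2 scale (95% interval 0.07 to 0.59, adjusted p = 0.0749, limma), and passed without OGE replicate 1 (0.43, adjusted p = 0.0455, limma). The summed level of the 6 astrocyte markers, nearly all of it Slc1a3, was 9.35 to 11.1 FPKM in control, 4.14 to 5.72 in OGP and 2.83 to 3.28 in OGE. Unlike Glul it was lowest in OGE, and its part in the result was not tested.

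Aldh18a1 (ENSMUSG00000025007, chromosome 19 from 40550257 to 40588463, minus strand) encodes the mitochondrial enzyme that reduces glutamate on the way to proline and ornithine. It stood at 31.7, 37.2 and 36.6 FPKM in control, 48.0, 40.9 and 41.1 in OGP and 41.9, 41.4 and 43.0 in OGE. Control was lowest without overlap, while OGP and OGE overlapped. Aldh18a1 rose by 0.30 in OGP against control on the log2 scale (SE 0.090, adjusted p = 0.0351, limma), and it did not pass when control replicate 1 or 3, any OGP library or OGE replicate 1 or 2 was left out (adjusted p of 0.0542 to 0.0974, limma). In OGE it was 0.26 above control (adjusted p = 0.0656, or 0.0468 without OGP replicate 1, limma) and -0.04 from OGP (95% interval -0.24 to 0.17). A processed pseudogene on the same strand, Gm15801, overlaps it by 522 bases and was given a mean of 4.21 FPKM, so some reads could belong to either.

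Pycr1 (ENSMUSG00000025140, chromosome 11 from 120635712 to 120643769, minus strand) encodes a mitochondrial pyrroline-5-carboxylate reductase, the last step to proline. Its level was 9.33, 11.2 and 9.72 FPKM in control, 15.4, 13.7 and 14.0 in OGP and 12.3, 11.3 and 11.9 in OGE. OGP was highest and control lowest, and no groups overlapped. Pycr1 rose 1.41-fold in OGP against control (log2 fold change 0.49, SE 0.087, adjusted p = 0.00318, limma). OGE differed from OGP by -0.27 (adjusted p = 0.0570, limma) and from control by 0.23 (adjusted p = 0.0928, limma) on the log2 scale. The latter passed without control replicate 2 (0.30, adjusted p = 0.0403, limma) and the former also passed without that library (adjusted p = 0.0360, limma). After quantile normalization the difference from OGP was -0.28 and passed (adjusted p = 0.0487, limma).

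Pck2 (ENSMUSG00000040618, chromosome 14 from 55540266 to 55551242, plus strand) encodes the mitochondrial phosphoenolpyruvate carboxykinase, which makes phosphoenolpyruvate from oxaloacetate. It stood at 14.7, 19.0 and 18.8 FPKM in control, 31.3, 26.1 and 27.2 in OGP and 21.8, 22.6 and 23.2 in OGE. The 3 groups did not overlap, and control replicate 1 and OGP replicate 1 lay at the ends of the whole range. Pck2 rose 1.60-fold in OGP against control (log2 fold change 0.68, SE 0.111, adjusted p = 0.00227, limma), and without control replicate 1 the change was 0.56 and no longer a DEG. In OGE it was 0.36 above control (adjusted p = 0.0407, limma), which did not pass when control replicate 3, OGP replicate 2 or 3 or any OGE library was left out (adjusted p of 0.0543 to 0.104, limma). OGE differed from OGP by -0.31 (95% interval -0.56 to -0.06, adjusted p = 0.0767, limma). An antisense gene that overlaps Pck2, Gm10876, was at 0 in all libraries. The cytosolic enzyme Pck1 had at most 0.0344 FPKM, and it was at 0 in all OGP and OGE libraries.

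Several of these enzymes have a partner that does the same reaction elsewhere in the cell, and the log2 ratio of the FPKM + 0.5 of both genes was taken in each library. Got1 was below Got2 in all libraries, at a log2 ratio of -0.79 ± 0.0961 (SD, n = 3) in control, -0.23 ± 0.112 in OGP and -0.62 ± 0.0531 in OGE. No groups overlapped in this ratio, nor in Got2, whereas they did in Got1. Gpt2 exceeded the cytosolic Gpt by 1.30 ± 0.335 in control, 1.94 ± 0.0617 in OGP and 2.02 ± 0.195 in OGE. OGP and OGE overlapped, both above control. Pycr1 was below its paralog Pycrl (also known as Pycr3) throughout, at a log2 ratio of -2.79 ± 0.254 in control, -2.52 ± 0.112 in OGP and -2.32 ± 0.0234 in OGE. OGE lay above the others without overlap, and OGP overlapped control. The level of each ratio rests on the gene lengths in the deposited table, which were 3935 bases for Pycr1 and 1339 for Pycrl. In all, 15 tests were made on 5 ratios, of which 3 are given here. With 3 libraries in each group an exact permutation test (two-sided) cannot go below p = 0.1, which 11 of the 15 tests reached (exact permutation, adjusted p = 0.136), so none could pass.

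**Figure D3:**
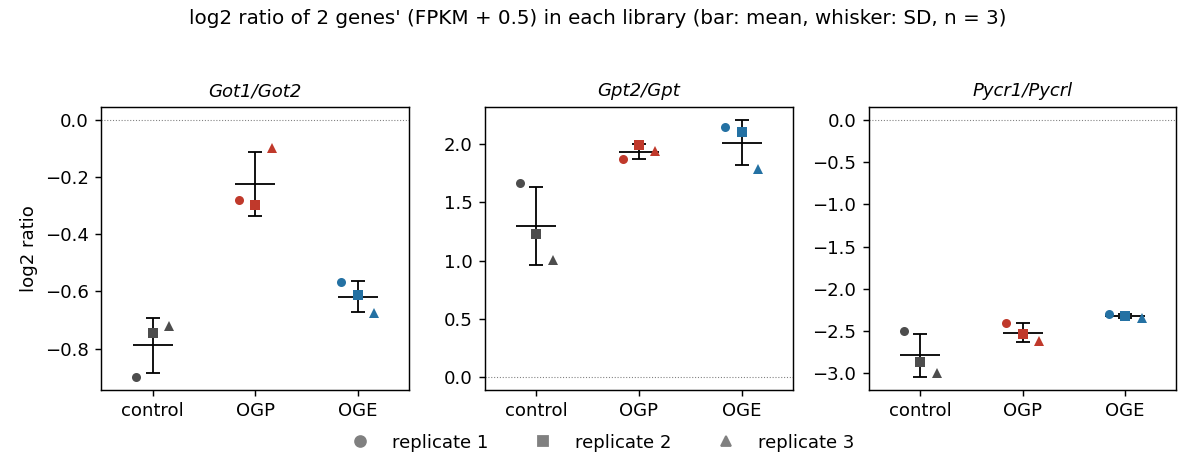
The log2 ratio of FPKM + 0.5 of 2 genes (vertical axis) in each control, OGP and OGE library (horizontal axis), with bars for the mean and whiskers for the SD over 3 libraries, each panel with its own scale. Got1/Got2 lies at -0.79 in control and -0.23 in OGP, and Gpt2/Gpt at 1.30 and 1.94.

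Other enzymes of the same pathways were counted from lists of 53 genes, of which 39 were tested. In OGP against control 4 of the 39 rose and 8 fell, where 13.8% and 16.0% of all genes did. The median log2 fold change was 0.01. Of the 39, 1 higher and 3 lower were DEGs, against 6.38% and 5.74% of all genes. The rises were 2 without control replicate 2 or OGP replicate 2 or 3, and the falls 5 without control replicate 3 or OGP replicate 3. Of DEGs, 0 were higher and 5 lower without control replicate 1, and 1 higher and 1 lower without control replicate 2. In OGE against OGP 2 rose and 9 fell, against 10.6% and 10.2% of all genes. These were 5 and 12 without control replicate 1, 4 and 6 without OGP replicate 1, 1 and 4 without OGP replicate 2 or 3, 2 and 4 without OGE replicate 1, and 2 and 5 without OGE replicate 2. In OGE against control 4 rose and 10 fell, against 11.7% and 13.1%, and 2 rose without OGE replicate 1 or 3.

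Around asparagine and aspartate, 0 of 5 tested genes rose and 3 fell in OGP against control, where 13.8% and 16.0% of all genes did. The falls were opposite in direction to Asns. Besides Got2, the genes that fell were Ass1, which joins aspartate to citrulline, at -0.67 on the log2 scale, and Asrgl1, an asparaginase, at -0.49. Both were also lower in OGE than in control, Ass1 at -1.06 (adjusted p = 0.00331, limma) and Asrgl1 at -0.73 (adjusted p = 0.00480, limma). The fall of Ass1 in OGP did not pass without control replicate 2 or 3 or OGP replicate 1 or 3 (adjusted p of 0.0562 to 0.0742, limma), that of Asrgl1 not without control replicate 2 or 3 or OGP replicate 3 (0.0815 to 0.0919, limma), and Got2 was no DEG without control replicate 2 (-0.57). Asnsd1, a relative of Asns, was at 0.36 in OGP against control (adjusted p = 0.0564, or 0.0288 without control replicate 1, limma).

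Of 13 tested methionine cycle and sulfur genes, 3 rose and 2 fell in OGP against control, where 13.8% and 16.0% of all genes did. In OGE against OGP 0 rose and 4 fell, where 10.6% and 10.2% of all genes did. In OGE against control 1 rose and 4 fell, where 11.7% and 13.1% of all genes did. Ethe1, a mitochondrial dioxygenase of the sulfide pathway, rose by 0.66 in OGP, from 21.5 to 33.9 FPKM (adjusted p = 0.00197, limma), and fell by 0.34 in OGE against OGP (adjusted p = 0.0467, limma). The fall did not pass without control replicate 3 or any OGP or OGE library (adjusted p of 0.0527 to 0.150, limma). The rise was 0.55 without control replicate 1 and then under the fold of a DEG. Tst, a sulfurtransferase, fell by 0.71 on the log2 scale in OGE against OGP (adjusted p = 0.00277, limma). Suox, which oxidizes sulfite, fell by 0.44 in OGP and by 0.67 in OGE against control, and Ahcyl1, a relative of the adenosylhomocysteine hydrolase, fell by 0.38 and 0.44. The other rises in OGP were those of Mat2a and Mat2b, subunits of the methionine adenosyltransferase, named after their values were seen. Both were lost without control replicate 2 or OGP replicate 2 or 3, which left 1 rise, and Mat2a also without control replicate 3, OGP replicate 1 or OGE replicate 1 or 2. In OGE against OGP the falls of Ethe1 and Mat2b were both lost without OGP replicate 2 or 3 or any OGE library, which left 2.

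Of 4 tested proline and ornithine genes, Oat, which links ornithine to the proline pathway, rose by 0.34 in OGP against control (adjusted p = 0.00659, limma) and fell by 0.32 in OGE against OGP (adjusted p = 0.0117, limma). Pycrl and Aldh4a1, a dehydrogenase of proline breakdown, also fell in OGE against OGP, by 0.47 (adjusted p = 0.0477, limma) and 0.74 (adjusted p = 0.00555, limma), with Aldh4a1 at 1.78 FPKM in OGP and 0.861 in OGE. The fall of Oat did not pass without OGP replicate 2 or 3 or OGE replicate 1 (adjusted p of 0.0533 to 0.0578, limma), and that of Pycrl not without control replicate 3 or any OGP or OGE library (0.0552 to 0.146, limma). After quantile normalization Oat was at -0.16 and Pycrl at -0.29 in OGE against OGP (adjusted p of 0.135 and 0.107, limma). The median of the 4 was 0.20 in OGP against control, and for OGE against OGP it was -0.39.

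Among 5 tested glutamate and glutamine genes 0 rose and 1 fell in OGP against control, where 13.8% and 16.0% of all genes did. The median was -0.00321. Aldh5a1, which oxidizes succinic semialdehyde, fell by 0.42 (adjusted p = 0.0156, limma). Glud1, glutamate dehydrogenase, fell by 0.21 in OGE against OGP (adjusted p = 0.0467, limma), and Gls2 was 0.42 higher in OGE than in control (adjusted p = 0.0147, limma). Aldh5a1 did not pass without control replicate 3 or OGP replicate 3 (adjusted p of 0.0634 and 0.0601, limma), nor Gls2 without OGE replicate 1 or 3 (0.0516 and 0.0531, limma). Glud1 did not pass without control replicate 3 or any OGP or OGE library (adjusted p of 0.0628 to 0.167, limma). Of 9 amidotransferases, which spend glutamine, 1 fell in OGP against control, where 16.0% of all genes did. The fall was that of Ctps, which makes CTP, from 79.8 to 46.3 FPKM (log2 fold change -0.78, adjusted p = 6.37e-05, limma). Ctps stayed below control in OGE at 52.2 FPKM (log2 fold change -0.61, adjusted p = 1.62e-04, limma), though under the fold of a DEG after quantile normalization (-0.50) and with voom (-0.58). Gfpt2, which starts hexosamine synthesis, was higher in OGE (1.76 FPKM) than in OGP (0.418 FPKM) by 1.30 on the log2 scale (adjusted p = 4.66e-04, limma), and Cad, which starts pyrimidine synthesis, was 0.46 above control in OGE (adjusted p = 0.0399, limma). Cad did not pass without control replicate 1 or 2, OGP replicate 2 or 3 or any OGE library (adjusted p of 0.0508 to 0.117, limma).

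Of 3 tested genes around pyruvate, Pcx, which makes the oxaloacetate that Pck2 can use, fell from 16.0 FPKM in control to 10.9 in OGP and 7.04 in OGE. Its log2 fold change was -0.52 in OGP against control (adjusted p = 0.0122, limma), -0.59 in OGE against OGP (adjusted p = 0.00978, limma) and -1.11 in OGE against control (adjusted p = 2.40e-04, limma). The groups did not overlap, and without OGP replicate 1 or OGE replicate 1 the change between OGE and OGP was under the fold of a DEG (-0.53 and -0.56). Pcx thus moved opposite to Pck2 against control. The malic enzymes Me1 and Me2 stood at 0.07 and -0.19 in OGP against control and did not pass.

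**Figure D4:**
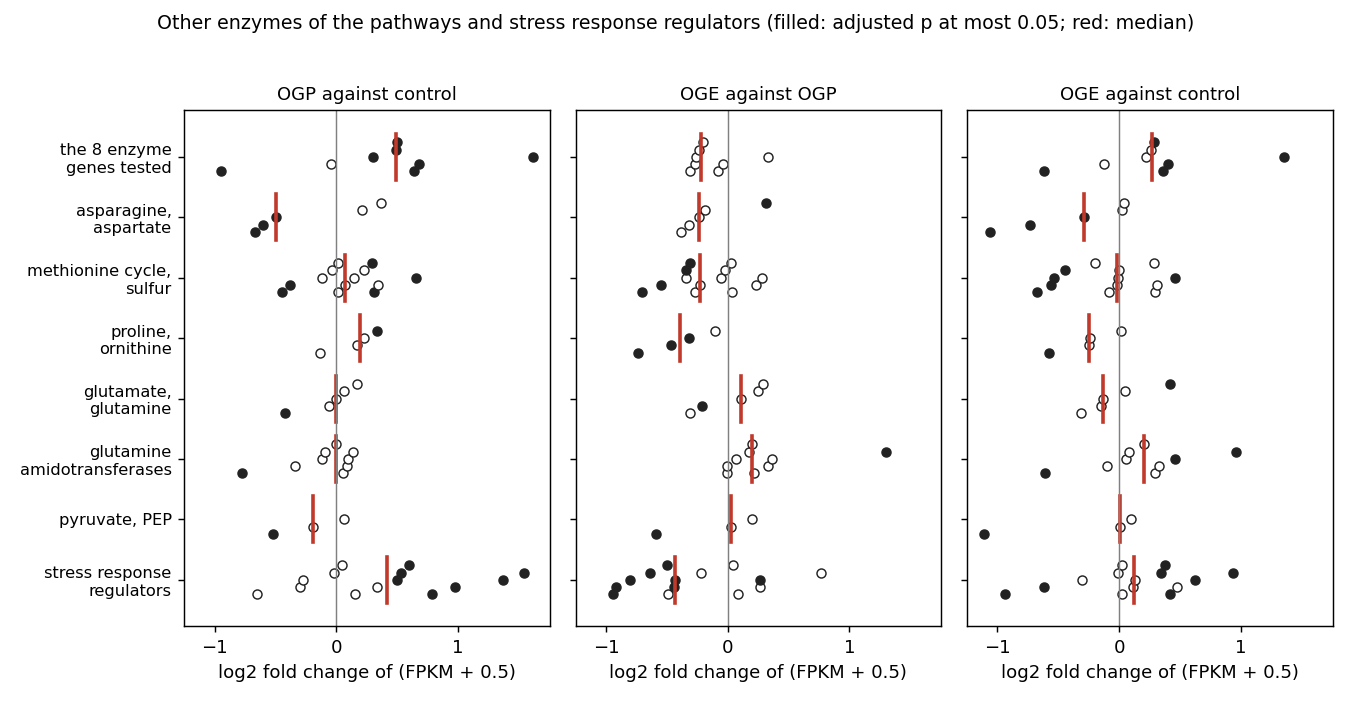
The log2 fold change of FPKM + 0.5 (horizontal axis) of every tested gene in each list (vertical axis, points spread vertically for legibility) in 3 comparisons, filled where the adjusted p was at most 0.05, with the median of each list in red. In OGP against control the medians were 0.49 for the 8 enzyme genes, 0.42 for the stress response regulators and -0.49 for asparagine and aspartate genes.

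Of 14 genes listed as regulators of the integrated stress response, 7 rose and 0 fell in OGP against control (median 0.42). Of all genes 13.8% rose and 16.0% fell there. In OGE against OGP 1 regulator rose and 7 fell (median -0.44), where 10.6% and 10.2% of all genes did. In OGE against control 5 rose and 2 fell (median 0.13), where 11.7% and 13.1% of all genes did. This list too was chosen with earlier results of these data known. After quantile normalization the median of OGE against OGP was -0.26. Eif2ak1, Eif2ak2, Eif2ak3 and Eif2ak4, which encode kinases of eIF2α, stood at -0.27, -0.30, 0.15 and 0.05 in OGP against control. They were not among the 7 rises, and Eif2ak2 fell without control replicate 2 (-0.42, adjusted p = 0.0289, limma). The rise in OGE against OGP was that of Eif2ak3, the kinase PERK (adjusted p = 0.0496, limma), which did not pass when any library but control replicate 1 was left out, and without that library 3 rose. Against control, 3 rose in OGE without OGE replicate 1 or 3, and 4 fell without control replicate 1. Cebpb, a C/EBP factor, was at -0.65 in OGP relative to control and at 0.77 in OGE relative to OGP and did not pass (adjusted p of 0.113 and 0.0865, limma). Without control replicate 1 it was a DEG in both, at -1.07 and 0.77 (adjusted p of 5.36e-05 and 1.03e-04, limma), so that 1 regulator fell in OGP. In OGE against OGP it was also a DEG with voom, with 6 libraries and after quantile normalization (0.92). Eif2ak1, Eif2ak3, Eif2ak4 and Cebpb were named after their values were seen. Atf4, shown although the rule for naming genes gives it no values, stood at 154.3, 200.2 and 196.8 FPKM in control, 310.1, 311.8 and 325.4 in OGP and 242.5, 213.4 and 242.4 in OGE. The groups did not overlap and came in the same order as for Asns, Cth, Gpt2, Pycr1 and Pck2. It rose by 0.79 on the log2 scale in OGP (adjusted p = 0.00106, limma) and fell by 0.44 in OGE against OGP (adjusted p = 0.0228, limma), the fall not passing without OGP replicate 2 or 3 or OGE replicate 1 or 2 (adjusted p of 0.0561 to 0.0864, limma) or after quantile normalization (-0.21, adjusted p = 0.0988, limma). Trib3, a pseudokinase induced by stress, rose by 1.54 in OGP (adjusted p = 6.74e-05, limma) and fell by 0.92 in OGE against OGP (adjusted p = 0.00120, limma). Its excess of 0.62 in OGE against control was under the fold of a DEG without control replicate 1 (0.53) or OGE replicate 3 (0.50). Nupr1, a small stress-induced nuclear protein gene, rose by 1.37 in OGP (adjusted p = 1.17e-05, limma) and fell by 0.43 in OGE against OGP (adjusted p = 0.00570, limma). It stayed above control in OGE, at 0.94 (adjusted p = 5.01e-05, limma). Chac1, which breaks down glutathione, was at 0.33 in OGP against control (adjusted p = 0.0832, limma) and fell by 0.95 in OGE against OGP (adjusted p = 0.00121, limma). It was also below control in OGE, at -0.61 (adjusted p = 0.00825, limma), though under the fold of a DEG without control replicate 2 or 3 or OGE replicate 2 or 3 (-0.57 to -0.53). Atf5 and Ddit3 were also DEGs in OGP against control, the latter not without control replicate 1 (0.56) or OGP replicate 3 (0.54), and Sesn2 and Eif2ak2 were DEGs, lower, in OGE against OGP. Eif2ak2, which encodes the kinase PKR, fell by 0.64 there and, without OGE replicate 3, by 0.55, under the fold of a DEG. Against control it was at -0.94 in OGE (adjusted p = 8.13e-04, limma).

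For the 4 enzyme genes that were DEGs, the protein-coding genes with the most similar pattern were sought among 10673 candidates by the root mean square difference of log2(FPKM + 0.5), centred on each gene's mean, over the 9 libraries. Nearest to Gpt2 were Cars (0.0786) and Tars (0.0805), which encode the tRNA ligases for cysteine and threonine. Nearest to Pck2 were Cpox (0.0619), an enzyme of heme synthesis, and Ethe1 (0.0668). Nearest to Cth were Artn (0.129), a growth factor gene that went from 2.84 FPKM in control to 9.31 in OGP and 7.04 in OGE, and Spink2 (0.176). Nearest to Glul were Pgk1 (0.0862), the glycolytic phosphoglycerate kinase, at 723.2 FPKM in control, 370.7 in OGP and 493.3 in OGE, and Igsf3 (0.0905). Among the enzyme genes themselves, Gpt2 lay nearest to Pycr1 (0.0874), and the nearest to Pck2 was Gpt2 (0.108). Glul lay no nearer than 0.387 to any other enzyme gene, and Cth no nearer than 0.469.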

How the data were processed

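HT22 RNA was selected with poly-T beads and sequenced in paired ends, and nothing states that the libraries kept strand. The authors aligned the reads with HISAT2 2.0.5 to mm10, used featureCounts to count them, and deposited FPKM values per gene and library. Their DEGs came from DESeq2 on counts, which were not used here. Whether a read pair counted as 1 or 2 is not stated. FPKM times gene length came out as whole multiples of a single step, to within 0.1, for all genes of up to 2000 reads (100% of values), which gave the reads in genes per library. Floors from reads cover counting error only. The intervals of fold changes come from the limma fit and reflect the spread between libraries.

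Genes averaging 0.5 FPKM or more across the 9 libraries, 13245 in number, were fitted in 1 model of 3 groups on log2(FPKM + 0.5) with limma 3.58.1 (R 4.3.3) and a trended prior variance. Benjamini-Hochberg adjustment covered every gene in the fit. A gene rose or fell at an adjusted p of at most 0.05 and was a DEG with a fold of at least 1.5 as well. Ratios of paired enzymes were compared with exact permutation tests, adjusted over all of them. The test was tried on simulated data. The enzyme genes and all lists were chosen with earlier results of these data known. Besides the enzyme genes, the text names every DEG of each list, gives values for up to 4 genes of each with the smallest p, and names the partners in ratios and the 2 genes nearest to each DEG. Alternatives covered pseudocounts, filters, scaling, fold, prior, libraries in the fit, the replicate block, voom on recovered reads and leaving out libraries. Coordinates are those of the deposited table, and promoters are from RefSeq. No promoter was given for Cth. A pair of partner genes and their ratios are not reported here.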

Additional observations from a re-analysis of the deposited data

How the results depend on the processing

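The 4 enzyme genes that were DEGs in OGP against control were 7 with no fold threshold and 1 at a fold of 2, and 3 to 4 when 1 library was left out. The 2 in OGE against control were 1 after quantile normalization, 5 with no fold threshold and 1 at a fold of 2, and 1 to 2 when 1 library was left out, the lost gene being Glul without control replicate 2 (-0.53) or OGE replicate 1 (-0.51). In OGE against OGP the number was 0 in all of these settings. Deviations of same-numbered libraries correlated at -0.177 to 0.319, with both signs, and those of differently numbered libraries at -0.346 to 0.264. With 3 libraries in each group this cannot decide whether the replicate numbers pair the libraries. With the replicate block the numbers of DEGs were 4, 0 and 2 for OGP against control, OGE against OGP and OGE against control. No direction of a gene that had passed was reversed. The cause of these shifts was not tested. The depth limits which low genes can be compared: Cbs, with at most 4 reads in a library, could not be.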
